A study of Mus musculus with 2 samples.

Results

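The DNA replication and mitosis genes studied here were 44 members chosen by symbol, of 32589 genes in the deposited tables. By their known roles, and not by their values, they were divided into 18 S phase members (*Mcm2* to *Pclaf*) and 26 mitosis members (*Mki67* to *Stmn1*). They were read in 2 single-cell RNA-Seq libraries of mouse cholangiocarcinoma (CCA), 1 library per group, to describe how they differed in each cell class when anti–PD-1 was added to YAP/TAZ depletion. Every animal had a CCA driven by the Notch intracellular domain (NICD) and myristoylated AKT, delivered to the liver by hydrodynamic tail vein injection with a transposase, and carried a doxycycline-inducible shRNA construct against *Yap1* and *Wwtr1* (shYT) under the ubiquitous CAG-rtTA3 driver, which is not limited to tumor cells. Induction began on day 25. The control library came from shYT livers given PBS and the other from shYT livers given an antibody to mouse PD-1, clone RMP1-14, on days 26, 29 and 32, and both were taken on day 33. Age, sex, shRNA line and animal number are not given in the labels. The study's legend for this experiment gives several animals per group, and how these map onto the single library of each group is not stated in the sources used here. Further, no library without shYT was analysed here, so what the shRNA does on its own could not be compared.

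Cells that divide copy their DNA in S phase and separate the copies in mitosis. The Mcm2 to Mcm7 proteins form the helicase that opens DNA at origins, where Cdc6 helps to load it and Cdc45 and Gins2 help to activate it. Pcna is the sliding clamp of the DNA polymerases, Pclaf and Fen1 work at the clamp, and Rrm1, Rrm2, Tyms, Dut and Tk1 supply nucleotides. In mitosis, Cdk1 with its cyclins Ccna2, Ccnb1 and Ccnb2 drives entry, Aurka, Aurkb and Plk1 are kinases of the spindle and chromosomes, the Cenp and Bub proteins act at kinetochores, Kif proteins are motors, and Cdc20 and Ube2c serve the ubiquitin ligase that ends mitosis. Mki67 is the Ki-67 antigen used to stain dividing cells. In lymphocytes these genes come on with clonal expansion after antigen is met, while mature neutrophils have left the cell cycle.

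Genes of the 2 groups are known to carry different promoter elements, E2F sites for S phase genes and the cell cycle homology region (CHR) with CCAAT boxes for mitosis genes. Promoters from RefSeq (GRCm38.p6, 250 bases before to 50 after each start) matched 37 of 44 members in 41 windows. E2F letters (TTTCCCGC, TTTCGCGC, TTTGCCGC or TTTGGCGC, either strand) were found for 7 of 16 S phase members and for 1 of 21 mitosis members, against 2.60% of all 27025 genes with a window. CHR letters (TTTGAA or TTCGAA, either strand) were found for 4 of 16 S phase members and 17 of 21 mitosis members, against 21.7% of all genes, and CCAAT for 11 of 16 and 19 of 21, against 41.1%. None of these motifs' letters contains another's. The windows below are those of the member with the most UMIs in each group and the next member with the group's element, with the matched letters in capitals. *Pcna* (chr2:132253131-132253430, minus strand) held a CCAAT match and no E2F match, *Pclaf* (chr9:65890073-65890372, plus strand) an E2F match across the start, and *Mki67* (chr7:135716330-135716629, minus strand) and *Top2a* (chr11:99024140-99024439, minus strand) 2 and 4 CHR matches. Capitals also mark CCAAT on either strand. A match is a description of letters, and no factor's binding was measured.
*Pcna* promoter: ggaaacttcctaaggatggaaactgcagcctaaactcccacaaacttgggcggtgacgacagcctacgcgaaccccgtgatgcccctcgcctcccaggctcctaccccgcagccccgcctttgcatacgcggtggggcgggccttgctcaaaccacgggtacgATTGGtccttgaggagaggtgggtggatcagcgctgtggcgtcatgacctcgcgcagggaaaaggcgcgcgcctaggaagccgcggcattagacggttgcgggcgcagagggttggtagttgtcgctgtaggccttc
*Pclaf* promoter: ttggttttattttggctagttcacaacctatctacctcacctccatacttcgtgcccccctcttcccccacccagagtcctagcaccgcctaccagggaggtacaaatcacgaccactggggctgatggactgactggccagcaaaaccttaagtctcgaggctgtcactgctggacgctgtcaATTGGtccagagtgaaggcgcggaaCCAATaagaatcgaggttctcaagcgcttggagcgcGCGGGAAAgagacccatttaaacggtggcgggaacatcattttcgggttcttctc
*Mki67* promoter: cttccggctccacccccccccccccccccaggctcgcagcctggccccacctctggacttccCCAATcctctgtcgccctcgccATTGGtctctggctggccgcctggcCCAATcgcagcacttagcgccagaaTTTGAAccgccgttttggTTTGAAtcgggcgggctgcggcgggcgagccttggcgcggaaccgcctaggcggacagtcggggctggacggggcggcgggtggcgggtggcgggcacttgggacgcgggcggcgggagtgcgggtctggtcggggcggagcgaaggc
*Top2a* promoter: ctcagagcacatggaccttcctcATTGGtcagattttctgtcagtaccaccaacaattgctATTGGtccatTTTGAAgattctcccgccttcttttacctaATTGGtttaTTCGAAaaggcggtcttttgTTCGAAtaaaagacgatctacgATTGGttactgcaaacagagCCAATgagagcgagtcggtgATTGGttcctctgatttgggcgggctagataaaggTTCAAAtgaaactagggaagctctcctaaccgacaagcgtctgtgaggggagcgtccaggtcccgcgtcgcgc

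The libraries held 19397 and 19451 cell barcodes, with 121713441 and 100807037 UMIs, in PBS and anti–PD-1 respectively. Cells were kept at 500 to 5000 detected genes with mitochondrial UMIs of at most 10% (15531 and 16360), and these held 98087 and 133089 UMIs of the members. Each kept cell took the lineage of which it had the most markers, which named 89.4% and 87.7% of them, and each of the 11 classes compared had at least 100 cells in both libraries. No member is a marker. The gate was not pure. At least 2 markers of another lineage were found in 36.1% of PBS and 44.8% of anti–PD-1 cells. The libraries shared 219 barcodes, and none of these had identical counts. They also differed in sex. Of the cells in the 11 classes, 1338 PBS and 6954 anti–PD-1 cells carried Y-linked UMIs but lacked *Xist*, and 5892 and 4 carried *Xist* but no Y-linked UMI. With 1 library per group there was no replicate and no test, sex and treatment cannot be told apart for the whole libraries, and the intervals given (95%) cover counting error only.

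Member levels are UMIs summed over a class and scaled to all UMIs of that class (CPM). Over the 26 mitosis members, the highest level among the 11 classes compared was in both libraries that of CD8-gated T cells, which are T cells with a UMI of *Cd8a* or *Cd8b1*, at 1644 CPM in PBS and 2045 in anti–PD-1. Over the 18 S phase members the same class led, with 1286 and 1816 CPM. CD8-gated T cells were the compared class with the highest level of 37 of 44 members in PBS and of 40 in anti–PD-1. Among the same 11 classes the lowest S phase level was that of neutrophils (271 and 301 CPM), and the lowest mitosis level was that of CAFs in PBS (240 CPM) and of endothelial cells in anti–PD-1 (415 CPM). *Kif23*, a kinesin of cell division singled out here after its values were seen, was an exception in both libraries, with its highest level among these classes in neutrophils, at 83.9 CPM in PBS and 76.0 in anti–PD-1. In CD8-gated T cells it was 20.4 and 29.7 CPM. For the ratios that follow, the median log2 ratio over all genes of a class ran from -0.26 to -0.01, so the members are read beside a background below 0. From PBS to anti–PD-1, the interval of the summed S phase log2 ratio lay above 0 in 9 of 11 classes and below 0 in none. The summed mitosis interval lay above 0 in 7 classes and below 0 in 2, other T and endothelial cells. These intervals take every UMI as independent and leave out the spread between cells. Much of a class's mitosis UMIs can lie in few cells, as with 80.8% of the thinned ones in 25 of 490 PBS endothelial cells. The intervals are thus too narrow for the sampling of cells.

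**Figure D1:**
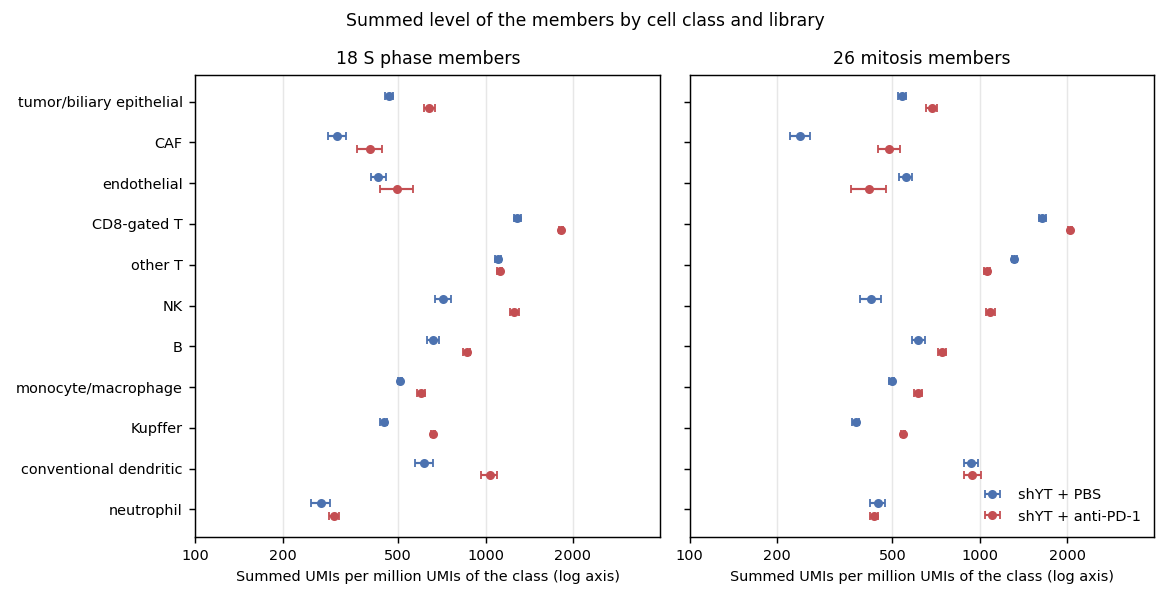
Summed UMIs of the 18 S phase members (left) and the 26 mitosis members (right) scaled to all UMIs of each cell class (CPM), on a log axis, in the shYT PBS library (blue) and the shYT anti–PD-1 library (red). Points are 1 library each and bars are 95% Poisson intervals of counting error. NK cells show the widest gap for mitosis members, 421 against 1089 CPM, and other T cells and endothelial cells lie the other way.

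NK cells had the highest log2 ratio of summed mitosis members among the 11 classes with all kept cells. Their S phase ratio was highest too, with an interval that overlapped that of conventional dendritic cells. Among cells that carried Y-linked UMIs but lacked *Xist* NK cells did not lead, as the mitosis ratio was 2.91 in CAFs, 2.58 in endothelial and 1.56 in CD8-gated T cells and the S phase ratio 1.17 in CD8-gated T cells. Their mitosis members summed to 421 CPM in PBS and 1089 CPM in anti–PD-1, a 2.59-fold higher level (log2 ratio 1.37, 1.24 to 1.50), and their S phase members to 715 and 1258 CPM (0.82, 0.71 to 0.92). All 44 members had at least 20 UMIs over both libraries and a log2 ratio above 0, and 37 were higher by a log2 ratio of at least 0.5, where 7.63% of 9918 genes were. None was lower by as much, where 17.8% of genes were. The median log2 ratio was 1.08 for mitosis members and 0.78 for S phase members, beside -0.15 for all genes. *Pclaf* had the highest ratio, with 19.7 CPM (13.0 to 28.7) in PBS and 99.0 CPM (87.0 to 112) in anti–PD-1 (log2 ratio 2.07). *Birc5*, survivin of the chromosomal passenger complex, followed with 10.2 and 47.1 CPM (1.77), and *Ccnb2* with 15.3 and 50.7 CPM (1.45). *Mki67* stood at 64.3 CPM (51.6 to 79.2) and 181 CPM (165 to 199), and the intervals did not overlap. *Top2a*, the topoisomerase that untangles chromosomes, stood at 46.0 and 121.5 CPM, *Cdk1* at 11.0 and 35.4 CPM, and *Stmn1*, a microtubule regulator, at 77.4 and 198.7 CPM. *Ccnb1* had a single UMI in PBS and 25 in anti–PD-1, and *Cdc6* had 3 and 30. The smallest differences in NK cells were those of *Bub1b* (6.58 and 7.24 CPM), *Mcm4* (54.8 and 59.1 CPM) and *Rrm1* (48.2 and 61.6 CPM), the last of which had a log2 ratio of 0.32. The mitosis log2 ratio was 2.23 without cells carrying 2 markers of another lineage and 0.93 among the 80 (PBS) and 307 (anti–PD-1) cells that carried Y-linked UMIs but lacked *Xist*.

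In CD8-gated T cells the S phase members were 1.41-fold higher in anti–PD-1, at 1286 and 1816 CPM (log2 ratio 0.50, 0.45 to 0.55), and the mitosis members 1.24-fold higher, at 1644 and 2045 CPM (0.31, 0.27 to 0.36). Of 44 members, 15 were higher by at least 0.5, where 5.99% of 12012 genes were, and 0 were lower, where 10.2% were. The highest ratios were those of *Dut*, the dUTPase that keeps uracil out of DNA, with 108.7 and 205.0 CPM (0.88), *Pclaf* with 132.4 and 237.5 CPM (0.82) and *Aurkb* with 15.8 and 29.5 CPM (0.73). *Pcna* stood at 260 CPM (244 to 277) and 340 CPM (327 to 353), and *Mcm5* at 61.7 and 80.3 CPM. *Mki67* was level, with 297 CPM (280 to 315) in PBS and 295 CPM (283 to 307) in anti–PD-1. Over the alternatives its log2 ratio ran from -0.07 to 1.22. The lowest ratios were those of *Cenpf*, with 59.6 and 40.9 CPM (-0.49), *Plk1*, with 25.2 and 20.3 CPM (-0.26), and *Cdc20*, with 39.5 and 34.9 CPM (-0.16). Members of the same group thus lay on both sides of 0 in CD8-gated T cells, with the cyclins *Ccna2*, *Ccnb1* and *Ccnb2*, *Birc5* (60.1 and 97.1 CPM) and *Cdk1* (42.1 and 63.7 CPM) higher by at least 0.5. The S phase log2 ratio was 0.30 without cells carrying 2 markers of another lineage. Among the 82 and 901 cells that carried Y-linked UMIs but lacked *Xist*, the S phase and mitosis log2 ratios were 1.17 and 1.56.

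The T cells without a *Cd8a* or *Cd8b1* UMI (other T cells) went the other way for mitosis members, which summed to 1316 CPM in PBS and 1060 CPM in anti–PD-1 (log2 ratio -0.31, -0.35 to -0.27). Their S phase members summed to 1106 and 1119 CPM (0.02, -0.03 to 0.06). None of 44 members was higher by 0.5, where 4.97% of 13019 genes were, and 7 were lower, where 9.24% were, beside a median of -0.14 for all genes. All 7 were mitosis members, and 23 of 26 mitosis members had a ratio below 0. The lowest were *Cenpf* (38.6 and 22.4 CPM, -0.67), *Cdca8* (39.3 and 23.9 CPM, -0.62) and *Mki67*, with 238 CPM (228 to 250) and 157 CPM (149 to 166). *Plk1* stood at 18.2 and 10.7 CPM and *Ccnb1* at 21.2 and 14.3 CPM. The highest were *Pcna*, with 231 CPM (220 to 242) and 286 CPM (275 to 298), *Cenpa*, the centromere histone, with 70.1 and 88.2 CPM, both at 0.31, and *Bub1* with 9.19 and 10.2 CPM. With each cell given the same weight the mitosis log2 ratio of other T cells was 0.16, the opposite direction. Over other and CD8-gated T cells together, a set of cells chosen after seeing the data, it was 0.12, at 1423 and 1549 CPM.

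Tumor and biliary epithelial cells, which the gate does not separate, had S phase members at 465 CPM in PBS and 639 CPM in anti–PD-1 (log2 ratio 0.46, 0.38 to 0.54) and mitosis members at 539 and 682 CPM (0.34, 0.26 to 0.42). Of 44 members, 12 were higher by 0.5, where 8.48% of 13238 genes were, and 1 was lower, where 9.57% were. The highest ratios were those of *Uhrf1*, which carries DNA methylation through replication (8.45 and 20.7 CPM, 0.94), *Mcm2* (20.1 and 42.4 CPM, 0.92) and *Tk1* (11.5 and 23.9 CPM, 0.81). *Bub1b*, a spindle checkpoint kinase, was the 1 lower member (5.39 and 2.23 CPM, -0.52). *Mcm5* stood at 17.9 CPM (14.9 to 21.4) and 30.3 CPM (24.5 to 37.0) and *Pcna* at 109 and 151 CPM. For *Mki67* (54.0 and 50.7 CPM), *Top2a* (50.2 and 54.8 CPM) and *Rrm2* (17.9 and 19.8 CPM) the intervals of the libraries overlapped, and a difference was not detectable with these UMI numbers. *Prc1* was level too, at 30.3 and 29.3 CPM. Without cells carrying 2 markers of another lineage the S phase and mitosis log2 ratios were 0.66 and 0.56. With cells above the upper limit on detected genes added, the mitosis log2 ratio was 0.83.

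**Figure D2:**
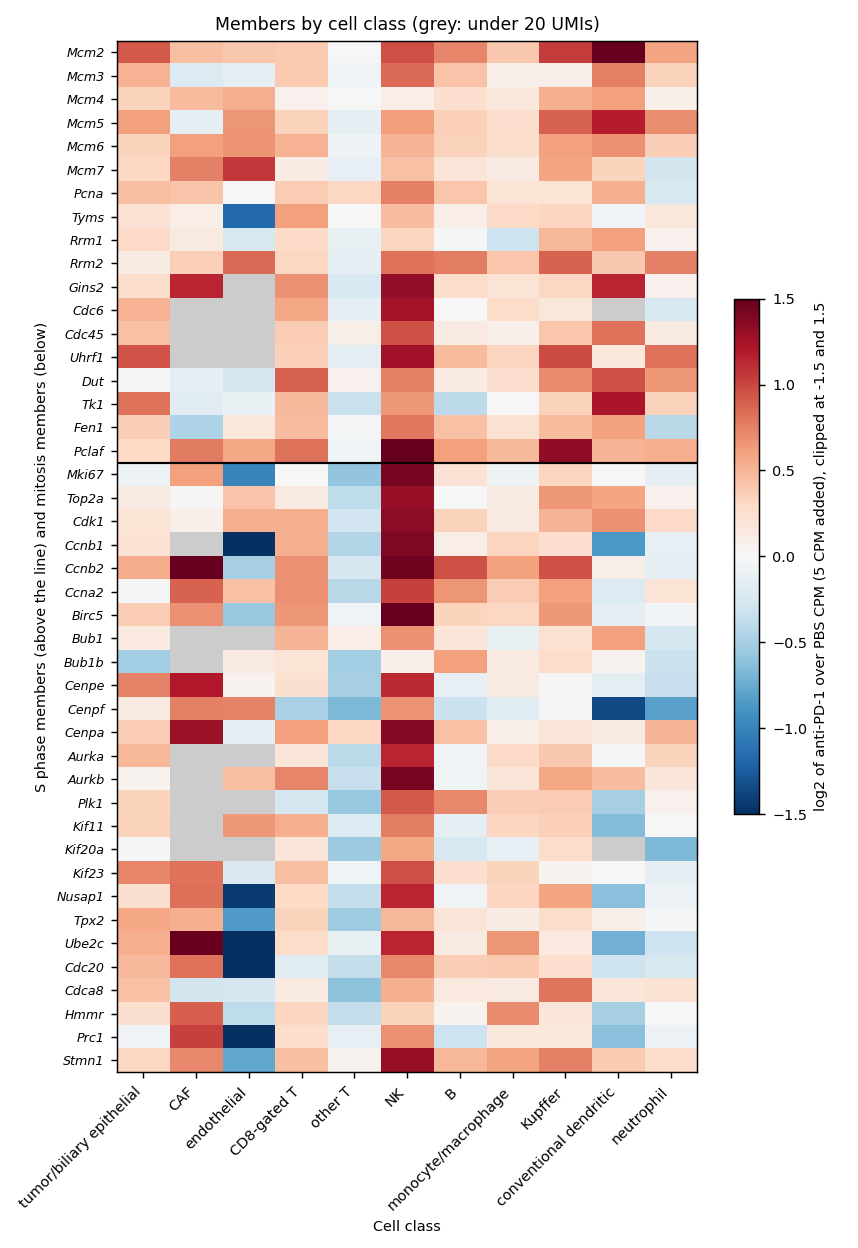
Log2 ratio of anti–PD-1 over PBS CPM for each of the 44 members (rows, S phase above the line) in the 11 cell classes (columns), after adding 5 CPM to both, with red for higher and blue for lower in anti–PD-1 and grey for under 20 UMIs. The NK column is red throughout (0.08 to 2.07), and the other T column holds the most mitosis members below 0 (23 of 26).

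In cancer-associated fibroblasts (CAFs) the mitosis members were 2.03-fold higher in anti–PD-1, at 240 and 488 CPM (log2 ratio 1.02, 0.85 to 1.19), and the S phase members stood at 307 and 400 CPM (0.38, 0.20 to 0.55). Only 33 of 44 members passed the minimum of 20 UMIs, 19 of them higher by 0.5, where 11.4% of 11241 genes were, and 0 lower, where 12.7% were. *Ccnb2* had the highest ratio (6.53 and 49.8 CPM, 2.25), followed by *Ube2c* (4.99 and 32.2 CPM, 1.90) and *Cenpa* (13.1 and 39.1 CPM, 1.29). The lowest were *Fen1* (7.30 and 3.91 CPM, -0.46), *Cdca8* (6.91 and 4.88 CPM, -0.27) and *Mcm3* (13.1 and 10.7 CPM, -0.20). Without the upper limit on detected genes, which raised the CAF number from 546 to 569 in PBS and from 234 to 243 in anti–PD-1, the mitosis log2 ratio was 0.11, and among the 39 and 99 cells that carried Y-linked UMIs but lacked *Xist* it was 2.91. Over the alternatives run, the S phase log2 ratio of CAFs ran from 0.14 to 0.99.

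Endothelial cells had 536 cells in PBS and 107 in anti–PD-1. Their S phase members stood at 427 and 494 CPM (log2 ratio 0.21, 0.00 to 0.41) and their mitosis members at 555 and 415 CPM (-0.42, -0.64 to -0.21). Of 36 members that passed, 9 were higher, where 10.5% of 10395 genes were, and 11 lower, where 20% were. *Cdc20* and *Ccnb1* had no UMI in anti–PD-1 and stood at 15.1 CPM (10.8 to 20.6) and 9.08 CPM (5.81 to 13.5) in PBS. Set against 3 UMIs in anti–PD-1, which would be 6.08 CPM, these levels are 2.48-fold and 1.49-fold. The anti–PD-1 interval of both genes ran from 0 to 7.47 CPM and overlapped the PBS interval of *Ccnb1*. Both genes passed the UMI minimum by their PBS UMIs alone. *Prc1*, a crosslinker of the spindle midzone, stood at 26.5 and 4.05 CPM, and *Ube2c* at 38.9 and 8.10 CPM. *Mki67* stood at 69.6 and 32.4 CPM. The highest ratios were those of *Mcm7* (17.8 and 42.5 CPM, 1.06), *Rrm2* (5.67 and 14.2 CPM, 0.85) and *Cenpf* (22.3 and 40.5 CPM, 0.74). Among the 35 and 46 cells that carried Y-linked UMIs but lacked *Xist* the mitosis log2 ratio was 2.58, the opposite direction, and without cells carrying 2 markers of another lineage it was -1.27.

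Kupffer cells, the resident macrophages of the liver, had S phase members at 445 CPM in PBS and 660 CPM in anti–PD-1 (log2 ratio 0.57, 0.52 to 0.61) and mitosis members at 374 and 544 CPM (0.54, 0.49 to 0.59). Of 44 members, 43 had a ratio above 0 and 19 were higher by 0.5, where 5.38% of 13963 genes were, and 0 were lower, where 4.45% were. *Pclaf* again led (18.1 and 53.2 CPM, 1.33), with *Mcm2* (17.7 and 41.8 CPM, 1.05) and *Uhrf1* (3.58 and 11.9 CPM, 0.98). *Mki67* stood at 67.9 and 86.2 CPM. The lowest were *Cenpf* (8.72 and 8.50 CPM), *Cenpe* (14.1 and 14.4 CPM) and *Kif23* (18.8 and 19.6 CPM), all 3 within 0.05 of 0. The Kupffer mitosis log2 ratio was 0.22 with cells of more than 5000 detected genes included, and the S phase log2 ratio ran from 0.36 to 0.74 over the alternatives. Kupffer cells numbered 1340 in PBS and 2467 in anti–PD-1 and other monocytes and macrophages 3332 and 1033, and 553 and 900 Kupffer cells were left without those carrying 2 markers of another lineage, so the classes may not hold the same cells in both libraries. The other monocytes and macrophages had S phase members at 508 and 599 CPM (0.24, 0.18 to 0.29) and mitosis members at 497 and 612 CPM (0.30, 0.25 to 0.35). Of their 44 members 4 were higher, where 6.71% of 13914 genes were, and 0 lower, where 7.81% were. The highest were *Hmmr* (5.54 and 12.2 CPM, 0.71), *Ube2c* (20.6 and 35.5 CPM, 0.66) and *Ccnb2* (21.3 and 34.8 CPM, 0.60), and the lowest *Rrm1* (31.6 and 24.6 CPM, -0.31), *Cenpf* (11.6 and 9.76 CPM, -0.17) and *Kif20a* (6.29 and 5.37 CPM, -0.12). Their mitosis log2 ratio was -0.07 without the upper limit on detected genes and 1.23 among cells that carried Y-linked UMIs but lacked *Xist*.

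Conventional dendritic cells (200 and 101 cells) had S phase members at 613 and 1032 CPM (log2 ratio 0.75, 0.62 to 0.89), while their mitosis members stood at 933 and 943 CPM (0.02, -0.11 to 0.14). Of 42 members that passed, 16 were higher, where 10.5% of 8579 genes were, and 8 lower, where 22.0% were. The 13 higher S phase members were led by *Mcm2* (23.1 and 83.3 CPM, 1.65), *Tk1* (10.4 and 31.0 CPM, 1.22) and *Mcm5* (32.0 and 79.0 CPM, 1.18). All 8 lower members were mitosis members, led by *Cenpf* (43.2 and 13.9 CPM, -1.35), *Ccnb1* (15.6 and 6.41 CPM, -0.86) and *Ube2c* (49.2 and 27.8 CPM, -0.72). Without cells carrying 2 markers of another lineage (123 and 49 cells left) the mitosis log2 ratio was -0.83 and the S phase log2 ratio 0.18, with an interval that held 0.

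B cells had S phase members at 659 and 861 CPM (log2 ratio 0.39, 0.30 to 0.47) and mitosis members at 615 and 739 CPM (0.27, 0.18 to 0.35). In B cells 7 of 44 members were higher, where 5.66% of 11457 genes were, and 0 lower, where 14.1% were. *Ccnb2* (16.1 and 35.7 CPM, 0.95), *Rrm2* (12.6 and 25.0 CPM, 0.77) and *Mcm2* (37.8 and 66.0 CPM, 0.73) led, and *Tk1* (23.5 and 16.8 CPM, -0.39), *Cenpf* (18.3 and 13.7 CPM, -0.32) and *Prc1* (23.9 and 18.2 CPM, -0.31) were the lowest. *Mki67* stood at 101.7 and 119.1 CPM, with overlapping intervals. The mitosis log2 ratio of B cells was 0.92 with no limit on high gene numbers.

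Neutrophils were read as the reference class, since mature neutrophils are known not to divide. Whether the member UMIs they hold are background was not tested, and in PBS their mitosis level was above that of CAFs, Kupffer cells and NK cells. Their S phase members stood at 271 and 301 CPM (log2 ratio 0.15, 0.03 to 0.28) and their mitosis members at 445 and 432 CPM (-0.04, -0.14 to 0.06). Of 44 members 7 were higher, where 5.72% of 11835 genes were, and 2 lower, where 25.7% were, beside a median of -0.26 for all genes. The 2 lower members were *Cenpf* (16.8 and 7.42 CPM, -0.81) and *Kif20a* (6.55 and 2.26 CPM, -0.67). *Uhrf1* had the highest ratio, from 1 UMI in PBS and 36 in anti–PD-1. The S phase log2 ratio of neutrophils was -0.23 without cells carrying 2 markers of another lineage. Their mitosis log2 ratio kept its direction in only 3 of 9 alternatives, which ran from -0.04 to 1.54, the highest among cells that carried Y-linked UMIs but lacked *Xist*. Over the classes, *Cenpf*, a kinetochore protein of late G2 and mitosis, had a ratio below 0 in 7 of 11. It was lower by at least 0.5 in 3 classes and higher by at least 0.5 in 3. *Pclaf* had a ratio above 0 in 10 of 11 and was higher in 8. *Mki67* had a ratio above 0 in 4 and below 0 in 6. Across all 484 pairs of member and class, 463 passed the UMI minimum, 145 were higher and 29 lower, where the shares of all genes ran over the classes from 4.97% to 11.4% higher and from 4.45% to 25.7% lower.

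Cells were next counted rather than UMIs. Each cell was thinned to 1000 UMIs, and a cell with UMIs of at least 2 S phase or at least 2 mitosis members was called cycling, which is a range of these counts and not a measured division. Neutrophils were cycling in 53 of 1131 (4.69%, 3.53 to 6.09) in PBS and in 169 of 2971 (5.69%, 4.88 to 6.58) in anti–PD-1 by this count, and these shares are the reference for the other classes. All kept neutrophils, with the shallower ones that did not enter, had a median of 1602 and 2141 UMIs. *Kif23*, highest in neutrophils, is among the members counted. The neutrophil difference of 1.00 points was 10.09 points without thinning. As a check of the other end, 10 of 12 PBS and 20 of 27 anti–PD-1 granulocyte precursors, a dividing bone marrow type, were cycling, and 8 of 10 erythroid cells were in anti–PD-1. Over all kept cells of this depth 1660 of 14456 PBS cells (11.5%) and 2431 of 15013 anti–PD-1 cells (16.2%) were cycling, and before thinning the kept cells had a median of 3159 and 2990 UMIs.

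**Figure D3:**
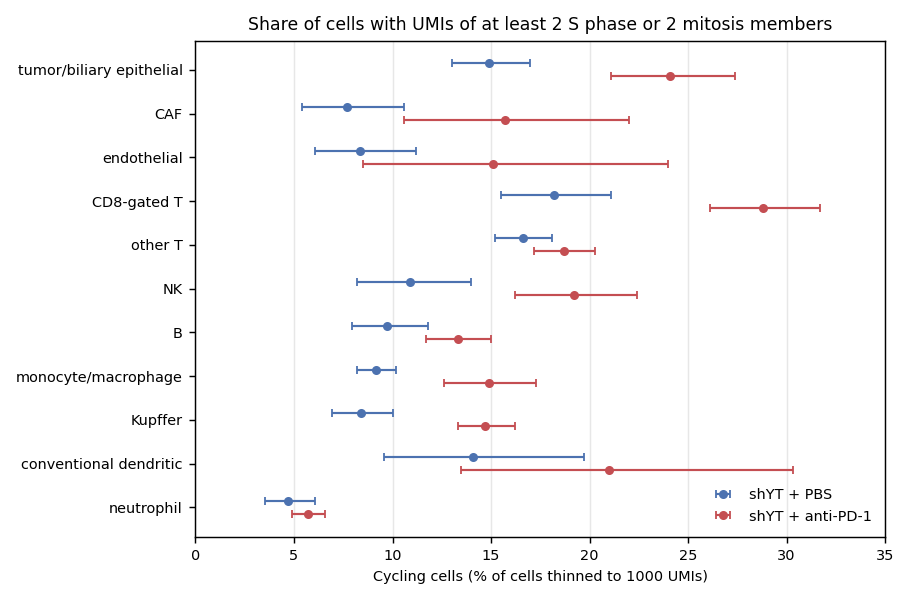
Share of cells with UMIs of at least 2 S phase or at least 2 mitosis members, after thinning each cell to 1000 UMIs, by cell class in the shYT PBS (blue) and shYT anti–PD-1 (red) libraries, with 95% Clopper-Pearson intervals. Neutrophils, the reference class, are at 4.69% and 5.69%, and CD8-gated T cells in anti–PD-1 have the highest share of the 11 classes drawn (28.8%).

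The share of cycling CD8-gated T cells was 18.2% in PBS (139 of 764) and 28.8% in anti–PD-1 (308 of 1068), a difference of 10.65 percentage points (6.73 to 14.44). For tumor and biliary epithelial cells it was 14.9% and 24.1%, a difference of 9.17 points (5.57 to 12.89), where 187 PBS and 200 anti–PD-1 cells were too shallow to enter. With 3 members required the tumor and biliary epithelial difference was 2.23 points (-0.43 to 5.08), an interval that holds 0. NK cells stood at 10.9% (52 of 479) and 19.2% (123 of 642), a difference of 8.30 points (4.08 to 12.37). Over the alternatives the difference ran from 4.75 to 19.65 points in CD8-gated T cells and from 6.48 to 21.44 in NK cells. Both were highest without thinning. The mitosis call alone was at 1.67% of PBS NK cells (0.724 to 3.26), an interval that holds the 2.56% of neutrophils, and at 7.17% of anti–PD-1 NK cells (5.29 to 9.44), above the 3.87% of neutrophils. The S phase call was at 10% and 15.7% of NK cells. Other T cells differed by 2.13 points (0.05 to 4.22), from 16.6% to 18.7%, and the difference ran from 1.52 to 14.02 points over the alternatives, the highest without thinning. Their share by the mitosis call was 6.14% and 8.82%, which goes against their summed CPM, so no order is read from it. The same holds for the mitosis call in endothelial cells and neutrophils. For shares the *Cd8a* and *Cd8b1* gate was applied to thinned cells, which gave 764 CD8-gated T cells against 1021 before thinning in PBS and 1068 against 1538 in anti–PD-1. Other T cells then numbered 2591 against 2386 in PBS and 2552 against 2149 in anti–PD-1. Their shares thus include T cells that carried a *Cd8a* or *Cd8b1* UMI before thinning. The part of such cells in the difference of other T cells was not tested. Kupffer cells stood at 8.38% and 14.7% (difference 6.35 points, 4.22 to 8.38), other monocytes and macrophages at 9.17% and 14.9% (5.68, 3.30 to 8.30), B cells at 9.74% and 13.3% (3.54, 0.99 to 5.95), CAFs at 7.71% and 15.7% (7.99, 2.50 to 14.53) and endothelial cells at 8.37% and 15.1% (6.69, 0.19 to 15.59). The cycling CAFs had a median of 2558 UMIs in PBS and 1385 in anti–PD-1, against 4113 and 4217 for the CAFs not called cycling, and the anti–PD-1 share rests on 27 cells. The difference in Kupffer cells was 2.73 points without thinning and ran up to 9.50 over the alternatives. The difference in conventional dendritic cells (6.93 points, -1.85 to 16.82) was not detectable at this depth. Endothelial cells had 0.24 points fewer in anti–PD-1 where 3 members were required, and the monocyte and macrophage share was 2.93 points lower without thinning. Over the alternatives the difference in B cells ran from 1.70 to 18.25 points and that in conventional dendritic cells from -0.61 to 21.32, the highest of both without thinning.

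The classes that the cycling cells came from differed between the libraries, as did the numbers of cells in those classes. Of 1660 cycling PBS cells, 25.9% were other T cells, 18.1% monocytes and macrophages, 11.3% tumor and biliary epithelial cells and 8.37% CD8-gated T cells. Of 2431 in anti–PD-1, 19.7% were other T cells, 14.3% Kupffer cells, 12.7% CD8-gated T cells and 9.38% B cells. Cells of no class were 9.46% and 13.7%. Of all thinned cells, monocytes and macrophages were 22.6% in PBS and 6.14% in anti–PD-1, Kupffer cells 9.08% and 15.7%, B cells 6.61% and 11.4% and other T cells 17.9% and 17.0%. The monocyte and macrophage, Kupffer and B cell parts of the cycling cells were below these shares in both libraries. CD8-gated T cells were 5.29% and 7.11% of all thinned cells, less than their part of the cycling cells in both libraries. Of the cycling cells, 359 in PBS and 576 in anti–PD-1 met both the S phase and the mitosis call, 885 and 1124 met the S phase call only, and 416 and 731 the mitosis call only, where a cell that met 1 call may still hold a UMI of the other group. In the 5% of cells with the most mitosis UMIs of a class lay 48.7% to 80.8% of those UMIs in PBS and 41.2% to 60.1% in anti–PD-1, lower in anti–PD-1 in 11 of 11 classes. In CD8-gated T cells this was 74.6% and 51.8%, and in neutrophils 48.7% and 41.4%. For S phase UMIs it was lower in 6 of 11 classes. Among cells without *Mki67*, 14.2% in PBS and 22.7% in anti–PD-1 had another mitosis member. The part of free RNA in this spread was not tested.

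Members differed in how far their UMIs lay in cycling cells. For each member the cells were called by the other members, and the share of its thinned UMIs outside cycling cells was taken. All kept cells were used together, those of no class included. Among mitosis members this share had a median of 26.6% in PBS and 30.8% in anti–PD-1, and among S phase members 59.4% and 52.6%. *Pclaf* had the lowest share of the S phase members, with 16.8% and 17.6%, and 52.1% and 56.6% of its UMIs lay in cells that met both calls. *Rrm2* followed with 29.7% and 31.6%. *Pcna* was at the other end, with 81.0% and 72.5% of its UMIs outside cycling cells. *Kif23* (72.4% and 75.2%) and *Cenpa* (57.8% and 64.6%) had the highest shares of the mitosis members, of which *Ccnb1* had 17.0% and 28.0% and *Mki67* 26.6% and 29.6%. From PBS to anti–PD-1 the share was lower for 15 of 18 S phase members and higher for 24 of 26 mitosis members. Cycling cells were 11.5% and 16.2% of the thinned cells, so a gene spread evenly over cells would also have a lower share in anti–PD-1. The mix of classes differed between the libraries, and its part in these shifts was not tested.

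**Figure D4:**
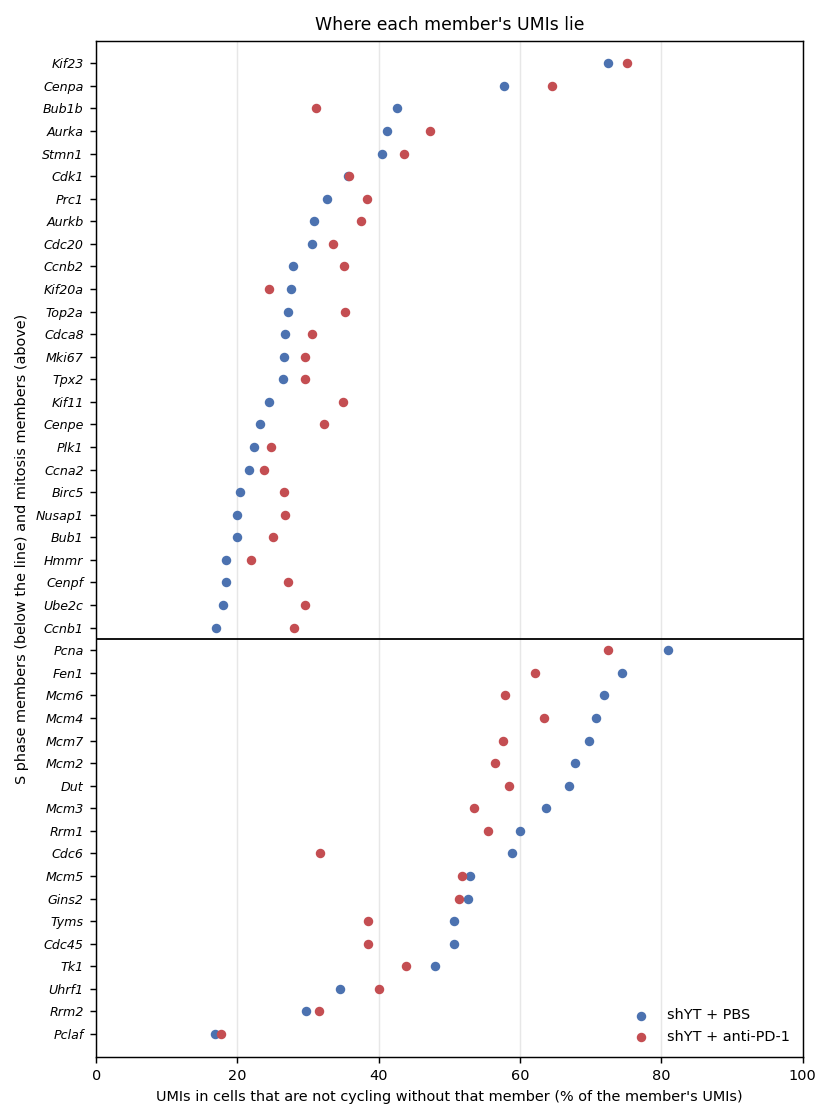
Share of each member's thinned UMIs that lay in cells not called cycling by the other members (x axis, percent), in the shYT PBS (blue) and shYT anti–PD-1 (red) libraries, with mitosis members above and S phase members below the line. *Kif23* (72.4% and 75.2%) stands apart among mitosis members, and *Pclaf* (16.8% and 17.6%) among S phase members.

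Other cell cycle genes, listed by role and holding no member, were read in the same way. Of 37 other mitosis genes, 27 passed the UMI minimum in NK cells, with a median log2 ratio of 0.78, 17 higher and 0 lower. In other T cells all 37 passed, with a median of -0.31, 0 higher and 7 lower, and for CD8-gated T cells it was 0.21, with 3 higher and 0 lower. Tumor and biliary epithelial cells (median 0.21, 4 higher and 1 lower of 36) and Kupffer cells (0.21, 5 higher and 0 lower of 37) had medians above 0 as well. In the other classes the median was 0.32 in conventional dendritic cells (7 higher, 4 lower of 24), 0.15 in CAFs (4 higher, 2 lower of 16), -0.01 in monocytes and macrophages (2 higher, 0 lower of 37), -0.05 in B cells (3 higher, 2 lower of 36), -0.13 in endothelial cells (2 higher, 6 lower of 20) and 0.00 in neutrophils (2 higher, 3 lower of 33). In monocytes and macrophages and in B cells the mitosis members had medians of 0.23 and 0.17, and all genes had medians of -0.11 and -0.13. The mitosis members had a median of 0.82 in CAFs, above that of the other mitosis genes there. In conventional dendritic cells it was -0.02, below that of the other mitosis genes. Of 24 other replication genes the median was 0.33 in NK cells (8 higher, 1 lower of 23), 0.28 in Kupffer cells (2 higher, 0 lower of 24), 0.25 in CD8-gated T cells (6 higher, 0 lower of 24), 0.18 in tumor and biliary epithelial cells (3 higher, 0 lower of 23) and -0.05 in other T cells (3 higher, 1 lower of 24). It was 0.22 in conventional dendritic cells (4 higher, 1 lower of 20), 0.14 in CAFs (2 higher, 1 lower of 15), 0.07 in endothelial cells (4 higher, 1 lower of 16), 0.07 in B cells (1 higher, 0 lower of 23), 0.06 in monocytes and macrophages (0 higher, 0 lower of 24) and 0.05 in neutrophils (0 higher, 1 lower of 22). The S phase members of B cells and of monocytes and macrophages had medians of 0.30 and 0.24, beside -0.13 and -0.11 for all genes. Over all genes the shares higher and lower were 7.63% and 17.8% in NK cells, 4.97% and 9.24% in other T cells, 5.99% and 10.2% in CD8-gated T cells, 8.48% and 9.57% in tumor and biliary epithelial cells, 5.38% and 4.45% in Kupffer cells, 10.5% and 22.0% in conventional dendritic cells, 11.4% and 12.7% in CAFs, 6.71% and 7.81% in monocytes and macrophages, 5.66% and 14.1% in B cells, 10.5% and 20% in endothelial cells and 5.72% and 25.7% in neutrophils. The higher mitosis genes in CD8-gated T, tumor, B and endothelial cells, monocytes and macrophages and neutrophils were near these shares. So were the higher replication genes in Kupffer cells, CAFs and B cells. In monocytes and macrophages and in neutrophils no other replication gene was higher. The condensin *Smc4* stood at 249 and 268 CPM in NK cells, 401 and 414 in CD8-gated T cells and 367 and 395 in other T cells, and at 114 and 78.2 CPM in CAFs and 120 and 83.0 CPM in endothelial cells (both -0.51). *Slbp*, the histone mRNA binder, stood at 131 and 208 CPM in CD8-gated T cells.

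Regulators of entry into the cycle were read beside them. *Ccnd1*, the cyclin D1 gene, stood at 1917 CPM in PBS and 997 CPM in anti–PD-1 tumor and biliary epithelial cells, at 153 and 33.8 CPM in NK cells and at 70.3 and 24.4 CPM in CD8-gated T cells, but at 117 and 156 CPM in Kupffer cells (0.40), 420 and 450 CPM in conventional dendritic cells (0.10) and 149 and 147 CPM in other monocytes and macrophages (-0.02). *Ccnd2* and *Ccnd3*, the cyclins of lymphocytes, were at 683 and 461 CPM and 472 and 367 CPM in NK cells, and at 517 and 302 CPM and 294 and 220 CPM in CD8-gated T cells. In other monocytes and macrophages their log2 ratios were 0.81 and 0.45, and in Kupffer cells 0.65 and 0.37. *Myc* was at 88.4 and 142 CPM in NK cells, 70.6 and 57.1 CPM in CD8-gated T cells and 73.9 and 265 CPM in B cells. Over the 17 entry regulators the median log2 ratio was 0.16 in NK cells (5 higher, 2 lower of 12), 0.21 in CD8-gated T cells (4 higher, 2 lower of 16), -0.13 in other T cells (0 higher, 2 lower of 16) and -0.13 in tumor and biliary epithelial cells (1 higher, 3 lower of 15), and in the other classes it ran from -0.23 in neutrophils to 0.23 in Kupffer cells. Among 12 inhibitors, *Cdkn1a*, which encodes the CDK inhibitor p21, stood at 92.8 and 275 CPM in NK cells (log2 ratio 1.52), 102 and 367 CPM in Kupffer cells (1.80) and 146 and 621 CPM in other monocytes and macrophages (2.05), and at 937 and 553 CPM in tumor and biliary epithelial cells (-0.76). *Btg1* and *Btg2*, antiproliferative genes that resting lymphocytes express, were at 932 and 1782 CPM and 517 and 1027 CPM in NK cells, and at 782 and 1269 CPM and 242 and 460 CPM in CD8-gated T cells. The higher level was not limited to lymphocytes. The *Btg1* and *Btg2* log2 ratios were 0.65 and 1.47 in tumor and biliary epithelial cells, 1.18 and 0.98 in CAFs and 0.81 and 0.52 in endothelial cells. *Cdkn1c*, which encodes the CDK inhibitor p57 and is named here after its values were seen, was lower in all 11 classes, with 346 and 30.9 CPM in tumor and biliary epithelial cells (-3.29), 47.4 and 3.65 CPM in B cells (-2.60), 37.6 and 4.42 CPM in CD8-gated T cells (-2.18), 37.3 and 4.39 CPM in other monocytes and macrophages (-2.17), 23.4 and 7.23 CPM in Kupffer cells (-1.21) and 22.6 and 8.85 CPM in NK cells. CAFs had *Cdkn1c* at 215 and 122 CPM (-0.79), and in anti–PD-1 this was above the level of tumor and biliary epithelial cells. Of the other classes named for *Ccnd1* and *Cdkn1c*, tumor and biliary epithelial cells had the highest level of both genes in both libraries. The part of free RNA and of mixed cells in the levels of the other classes was not tested, so these classes are not separate readings. The inhibitor median was 0.25 in NK cells (3 higher, 2 lower of 10), 0.22 in CD8-gated T cells (3 higher, 1 lower of 11), 0.02 in other T cells (4 higher, 1 lower of 12) and -0.16 in tumor and biliary epithelial cells (2 higher, 3 lower of 12), and in the other classes it ran from -0.26 in B cells to 0.41 in conventional dendritic cells. The all-gene shares given above, 4.97% to 8.48% higher and 9.24% to 17.8% lower in these 4 classes, stand beside these counts of few genes.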

How the data were processed

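Single-cell RNA-Seq (Singleron GEXSCOPE) was done on digested tumor-bearing livers after red cell lysis and removal of debris and dead cells, 1 library per group. The authors deposited raw UMI counts per gene and called cell barcode, made with the Singleron software against mm10. Its version, the gene annotation and strand handling are not given in the sources used here. The submitters' processing notes also name Seurat 4.3.

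Cells were kept at 500 to 5000 detected genes with mitochondrial UMIs of at most 10%, and had a median of 3159 UMIs in PBS and 2990 in anti–PD-1. A cell took a lineage when at least 2 of its 6 markers were found and more than for any other lineage. Kupffer cells were monocytes or macrophages with at least 2 of 6 Kupffer markers. UMIs were summed per library and class, given as CPM with exact Poisson intervals, and compared as a log2 ratio with an exact binomial interval. Single members had at least 20 UMIs over both libraries, 5 CPM was added before the log2 ratio, and higher or lower means a log2 ratio past 0.5 or -0.5. For shares, each cell was thinned to 1000 UMIs (seed 1) and kept the lineage taken from all its UMIs. Only the split of T cells by *Cd8a* and *Cd8b1* was made again. Shares have Clopper-Pearson intervals and their differences Newcombe intervals. All intervals are 95% intervals of counting error. No p-value can be had with 1 library per group. Doublets were kept. A simulated-doublet score with an Otsu threshold marked 456 (2.94%) and 478 (2.92%) cells, which were left out as an alternative, and the score's own threshold marked 0%. Scripts used Python 3.11.15, numpy 2.4.6, scipy 1.17.1, pandas 2.3.3, scanpy 1.11.5, scikit-image 0.26.0 and matplotlib 3.10.9 and were tested on simulated data.

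The members and all gene lists were chosen with earlier results of these data known. Named were *Mcm5*, *Pcna*, *Rrm2*, *Cdc6*, *Mki67*, *Top2a*, *Cdk1*, *Ccnb1*, *Plk1*, *Birc5* and *Stmn1* as examples of roles, the 3 members with the highest and the 3 with the lowest log2 ratio in a class, the 2 genes of each other list with the most UMIs in a class, and *Cdkn1a*, *Ccnd1*, *Ccnd2*, *Ccnd3* and *Myc*. Not all are printed for every class. Members named in the text on class levels and on cells outside the cycling count were chosen after their values were seen. Alternatives changed the cell limits, the gate, doublets, sex-linked UMIs, scaling, weighting of cells, pseudocount, UMI minimum, thinning, the number of members required, the members summed and the CD8 gate.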

Additional observations from a re-analysis of the deposited data

Results flagged for a closer look

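Mitosis members had a log2 ratio of summed CPM of -0.42 in endothelial cells and of -0.31 in other T cells, with intervals below 0, whereas the interval lay above 0 in 7 of the 11 classes. The difference between classes was not tested, since each group is 1 library. Cells above 5000 detected genes, which entered the comparisons only in the alternative without that limit, were cycling by the thinned count in 49.3% of 355 in the anti–PD-1 library (44 to 54.6) and in 22.8% of 670 in PBS (19.7 to 26.2). Of these cells 96.6% and 93.6% had 2 markers of another lineage. The mix of classes among them differed, with 411 PBS and 108 anti–PD-1 tumor and biliary epithelial cells and 59 and 126 Kupffer cells. Within these classes the shares in PBS and anti–PD-1 were 15.3% (12.0 to 19.2) and 22.2% (14.8 to 31.2), and 44.1% (31.2 to 57.6) and 52.4% (43.3 to 61.3), with overlapping intervals.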

How the results depend on the processing

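Each choice was changed in turn. The S phase and mitosis log2 ratios of tumor and biliary epithelial, CD8-gated T and NK cells stayed above 0 under every alternative run, at 0.40 to 0.94 and 0.24 to 0.83, 0.30 to 1.17 and 0.12 to 1.56, and 0.60 to 0.98 and 0.93 to 2.23, and those of other T cells ran from -0.07 to 0.33 and from -0.41 to 0.16. The low end of 0.12 for mitosis in CD8-gated T cells is the value of all T cells together. So is the high end of 0.33 for S phase in other T cells. No alternative adds a replicate, and the cause of each move was not tested.

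Without an upper limit on detected genes, the mitosis log2 ratio was 0.83 in tumor and biliary epithelial cells, 0.44 in CD8-gated T cells (S phase 0.61) and -0.07 in monocytes and macrophages, *Stmn1* in CAFs was at -0.04, and cycling other T cells differed by 4.50 points. With up to 20% mitochondrial UMIs, cycling CD8-gated and other T cells differed by 6.09 and 5.18 points. With 1 more marker the tumor mitosis log2 ratio was 0.24. Without cells with 2 markers of another lineage, S phase and mitosis log2 ratios were 0.66 and 0.56 in tumor, -0.03 and -0.41 in other T and 0.63 and 2.23 in NK cells, the S phase log2 ratio was 0.30 in CD8-gated T cells and -0.23 in neutrophils, and cycling other T cells differed by 4.24 points. Among cells that carried Y-linked UMIs but lacked *Xist*, the S phase log2 ratio was 0.94 in tumor, 1.17 in CD8-gated T, -0.03 in other T and 0.61 in NK cells, the mitosis log2 ratio was 2.58 in endothelial, 1.56 in CD8-gated T and 0.93 in NK cells, and cycling other T cells differed by 6.25 points. Without the most abundant member, the mitosis log2 ratio was 0.38 in CD8-gated T and -0.25 in other T cells (S phase -0.07). As a mean over cells, S phase and mitosis log2 ratios were 0.60 and 0.46 in tumor, 0.44 and 0.51 in CD8-gated T and 0.17 and 0.16 in other T cells, and NK S phase was 0.60. Under median-ratio scaling they were 0.63 and 0.44 in CD8-gated T, 0.21 and -0.12 in other T and 0.98 and 1.54 in NK cells, and 12 pairs of member and class were lower, not 29. Thinned to 2000 UMIs, cycling other T and NK cells differed by 6.68 and 15.23 points. Without thinning the difference was 5.12 points in tumor, 19.65 in CD8-gated T, 14.02 in other T, 21.44 in NK cells and -2.93 in monocytes and macrophages. With at least 3 members it was 2.23 in tumor, 6.68 in CD8-gated T and -0.24 in endothelial cells. With *Cd8a* and *Cd8b1* both required, the S phase log2 ratio was 0.43 in CD8-gated T cells, and S phase and mitosis were at 0.13 and -0.13 in other T cells. With all T cells together, an alternative chosen after seeing the data, they were 0.33 and 0.12, and the cycling difference was 4.75 points. No paired analysis was possible because each group is 1 library.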
